A study of Oncorhynchus mykiss with 9 samples.

Results

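Small RNAs of rainbow trout liver were compared between acute hypoxia and control. The acute hypoxia group held 3 libraries from livers of wild-type trout (Oncorhynchus mykiss) kept under acute hypoxia for 12 h, and the control group held 3 libraries from livers of wild-type trout labelled as control. Each table entry is a miRNA name, known or predicted, with a sequence that other entries may repeat, and those averaging 1 TPM or more across the 6 libraries were kept, which gave 475 of 1139. Of these, 250 had a known miRNA's name and 225 were predictions, and they had 393 distinct sequences. The mean was 1.0013 TPM for the last entry inside this limit and 0.9954 TPM for the first outside it. The series also held 3 libraries from moderate hypoxia, and its design text names a reoxygenation stage that was not analysed here. The sources used here give no oxygen level, age, body size or number of fish per library. The labels do not say that the 3 libraries of a group came from separate fish, so each p-value covers the spread between libraries and nothing wider.

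TPM is here a read count scaled to the total of its library, with no correction for length. The acute hypoxia libraries had been scaled to 11840071, 8441668 and 8782339 reads, and the control libraries to 10346358, 10263288 and 9074684 reads. The value of 3 reads, the limit that a count of 0 allows, was 0.253 to 0.355 TPM in acute hypoxia and 0.290 to 0.331 TPM in control; this covers counting error only. On log2 values the acute hypoxia libraries correlated with each other at 0.986 to 0.991 and the control libraries at 0.981 to 0.990, while pairs of an acute hypoxia and a control library gave 0.974 to 0.992. Control library 1 stood apart: it had the highest score on the first principal component, which held 40.9% of the variance, and its correlations with the 5 other libraries were 0.974 to 0.983. It was not alone in this. On the second component, with 30.2% of the variance, control library 3 had the highest score (7.69) and control library 1 the lowest (-6.94). Acute hypoxia library 2 and control library 3 correlated at 0.979. Of the 48 entries given below with a log2 difference, 20 moved by over 1.5 times or changed sign without control library 1. The values without that library are given for those described at length.

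MicroRNAs are short RNAs that pair with messenger RNAs, mainly through the seed, taken here as bases 2 to 8 of the miRNA, and lower the output of those messenger RNAs. In mammals the best known hypoxia miRNA is miR-210, whose gene is switched on by the hypoxia-inducible factor HIF-1. In zebrafish the clustered miR-462 and miR-731 are induced by hypoxia through the same factor. In liver cells of vertebrates miR-122 is by far the most abundant miRNA, and it is tied to lipid metabolism.

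The sequences of the hypoxia miRNAs, of miR-122 and of the predicted miRNA that the series title names are shown first, because the questions of the study rest on them. Capitals mark the seed.
miR-210-x: aGCCACTGactaacgtacattg
miR-210-y: cTGTGCGTgtgacagcggctaa
miR-210-z: cTGTGCGTgtgacagcggct
miR-462-x: tAACGGAAcccataatgcagctg
miR-462-z: cTAACGGAacccataatgcagctg
miR-731-x: aATGACACgttttctcccggatt
miR-731-y: cACCGGGAatttcgtgtcagca
predicted 23 nt entry: cACCGGGAatttcgtgtcagcaa
miR-122-x: tGGAGTGTgacaatggtgttt
miR-122-y: aACGCCATtatcacactaaat
predicted miRNA of the series title: gAGTAAATggaaaggtctga
The predicted 23 nt entry was miR-731-y with 1 more base at its end, and miR-210-y was miR-210-z with 2 more. These pairs share their seed and most of their length, and the sources used here do not say how reads were divided between them. The sequence of miR-462-z holds that of miR-462-x with a base added in front, so its seed is shifted.

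A further set is shown because it held 5 of the 10 entries with the smallest unadjusted p among those of at least 10 TPM. Each of these RNAs was 18 nt long and ended in CCA, which is in capitals. As background, mature transfer RNAs carry CCA at their end, added by an enzyme. The set was put together after the values had been seen.
miR-1260-z: atcccaccgctgtcaCCA
miR-7977-z: ttcccggccaatgcaCCA
miR-2478-z: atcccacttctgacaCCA
miR-1386-z: ctcctggctagctcgCCA
predicted 18 nt entry: atcacgtcggggtcaCCA
miR-7550-z: atccggctcgaaggaCCA
miR-4454-z: atccgggtcacggcaCCA
A last set holds the pancreas-enriched miR-216 and miR-217 and a pair that shared a seed, again in capitals.
miR-216-x: tAATCTCAgctggcaactgtga
miR-217-x: tACTGCATcaggaactgattgg
miR-8159-x: tCAGTAACtggaatctgtccct
miR-459-x: tCAGTAACaaggattcatcctg

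Across the whole table no entry was called. With limma on log2(TPM + 1) and Benjamini-Hochberg adjustment over the 475 entries, 0 entries (0.0%) had an adjusted p under 0.05, and the smallest adjusted p was 0.28. At an unadjusted p under 0.05 there were 42 entries (8.84%), of which 33 (6.95%) were higher in acute hypoxia and 9 (1.89%) were lower. The voom method of limma on recovered reads also called 0 and had 41 at an unadjusted p under 0.05. The 42 held 37 distinct sequences, and 27 of them had a mean below 10 TPM. The values of the groups did not overlap for 53 entries (11.2%), with acute hypoxia above control in 41 (8.63%) and below it in 12 (2.53%). The log2 difference, acute hypoxia minus control, ran from -1.08 to 1.48, with a median of 0.097, and it was 1 or more in 9 entries and -1 or less in 4. The median 95% interval of a single entry reached 0.643 on either side of its log2 difference. Scaling by the trimmed mean of M values gave a median of 0.003 and split the unadjusted entries into 27 higher and 13 lower. The median of ratios gave 27 and 14, and quantile normalization 25 and 11. Without control library 3 the split was 26 and 16 and the median 0.011, the lowest over the left-out libraries. That library was the lowest of its group in 220 of the 475 entries.

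One library decided whether any entry was called. Without control library 1, 3 entries had an adjusted p under 0.05 in limma, all higher in acute hypoxia: miR-216-x (log2 difference 1.66, adjusted p 0.0155), miR-8159-x (1.53, adjusted p 0.0342) and a predicted entry of 23 nt that was read at 6.08, 2.96 and 1.37 TPM in acute hypoxia against 1.16, 0.585 and 0.110 TPM in control (1.61, adjusted p 0.0245). The last of these lies below 10 TPM and is named for this count only, after its values were seen. Leaving out any other single library gave 0 calls. The count at an unadjusted p under 0.05 was 65 without acute hypoxia library 1 and 64 without control library 2, against 42 with all libraries.

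**Figure D1:**
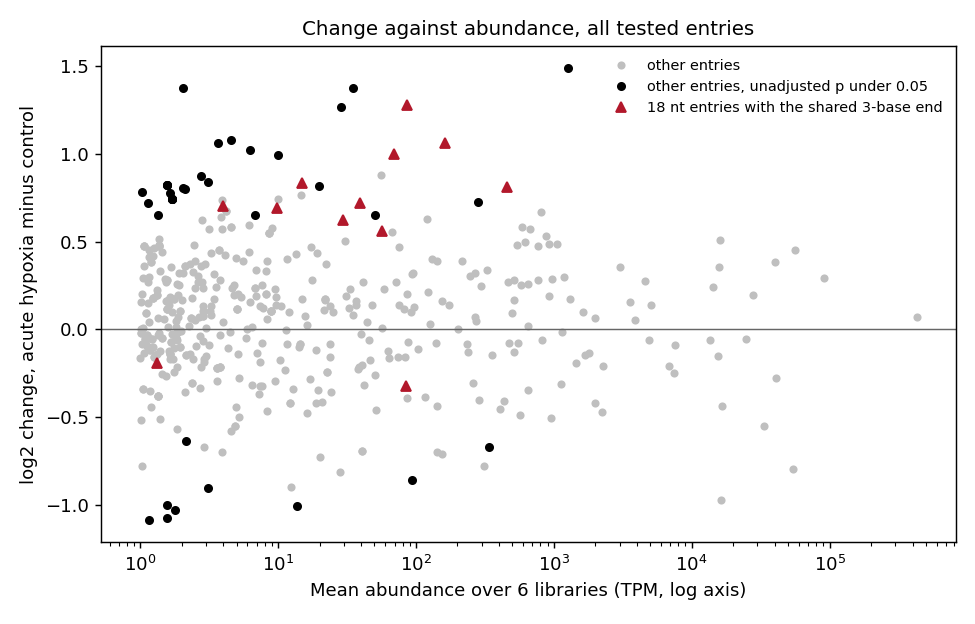
Log2 difference (acute hypoxia minus control) against mean abundance in TPM on a log axis, 1 point per tested entry; triangles are the 12 tested 18 nt entries that end in CCA, and black points are other entries with an unadjusted p under 0.05. Most entries lie within 1 of zero, and 10 of the 12 triangles, a set formed after the values had been seen, lie above it.

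The hepatocyte miRNA miR-122 dominated every library, which fits a liver sample, and its difference between the groups was within the spread of the libraries. miR-122-x was read at 436090, 405761 and 460807 TPM in acute hypoxia, against 307410, 459095 and 500551 TPM in control. The acute hypoxia values lay inside the range of the control values, whose lowest was control library 1, and the log2 difference was 0.07 (95% interval -0.53 to 0.67, adjusted p 0.932). The shares of both miR-122 entries together averaged 43.4% ± 2.72 in acute hypoxia and 42.1% ± 10.2 in control (SD, n = 3 each; two-sided exact permutation test over libraries, p = 0.9, smallest possible 0.1). The sign of this difference turned without control library 1, when it was -4.49 percentage points, and without acute hypoxia library 3, when it was -0.065.

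The other strand of the same hairpin, miR-122-y, had a log2 difference that rested in large part on control library 1. It was read at 739, 2414 and 2147 TPM in acute hypoxia, against 175, 1353 and 735 TPM in control. Acute hypoxia libraries 2 and 3 lay above every control library, and acute hypoxia library 1 lay among them. The log2 difference was 1.48 (95% interval 0.18 to 2.79, unadjusted p 0.0288, adjusted p 0.406), and 0.65 without control library 1 (adjusted p 0.568). Per 1000 TPM of miR-122-x there were 1.69, 5.95 and 4.66 TPM of miR-122-y in acute hypoxia and 0.569, 2.95 and 1.47 TPM in control (two-sided exact permutation test, p = 0.2).

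The 10 most abundant entries were miR-122-x, miR-199-x, miR-30-x, miR-100-x, let-7-x, miR-22-y, miR-26-x, miR-181-x, miR-192-x and miR-21-x. Their log2 differences lay between -0.80 and 0.45, and each 95% interval included 0. let-7-x, of a family that promotes differentiation, was the only one of the 10 whose groups did not overlap, beside 53 of all 475 tested entries (11.2%). It was read at 38129, 36733 and 35209 TPM in acute hypoxia, against 48151, 40666 and 44536 TPM in control, a log2 difference of -0.27 (adjusted p 0.775). miR-30-x, abundant in liver, was read at 50817, 84980 and 60702 TPM in acute hypoxia, against 48837, 58257 and 35841 TPM in control, a log2 difference of 0.45. miR-100-x, which in mammals restrains the growth kinase mTOR, was read at 59125, 23192 and 33817 TPM in acute hypoxia, against 120354, 36455 and 55290 TPM in control. Its log2 difference was -0.80 (adjusted p 0.616), the highest of its 6 values was that of control library 1, and the difference was -0.32 without that library. miR-26-x had a log2 difference of -0.55 and miR-21-x, raised in many injured tissues, one of -0.43, which was -0.058 without control library 1. The differences of miR-22-y, miR-199-x, miR-181-x and miR-192-x were 0.38, 0.29, 0.20 and -0.05; without control library 1 those of miR-22-y and miR-192-x were 0.22 and 0.11.

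Of the mammalian hypoxia miRNA miR-210, 3 entries were tested, and all had positive log2 differences that limma did not call. Positive differences were found in 276 of all 475 tested entries, and miR-210-y and miR-210-z are near copies of one sequence. miR-210-z was read at 130, 162 and 157 TPM in acute hypoxia, against 115, 114 and 109 TPM in control. The groups did not overlap, with acute hypoxia above control as in 41 of all 475 tested entries (8.63%). The log2 difference was 0.40 (95% interval -0.18 to 0.98, adjusted p 0.689). miR-210-y, the longer form with the same seed, was read at 131, 195 and 149 TPM in acute hypoxia, against 179, 99.2 and 95.1 TPM in control, where control library 1 was high (0.39, 95% interval -0.30 to 1.08; 0.68 without that library). miR-210-x was read at 116, 163 and 112 TPM in acute hypoxia, against 96.4, 97.1 and 144 TPM in control, with overlap (0.21, 95% interval -0.43 to 0.86; 0.12 without control library 1). A log2 increase of 1 lies outside the interval of miR-210-x, just outside that of miR-210-z and inside that of miR-210-y. The intervals are not adjusted over entries, so they do not exclude such an increase of miR-210.

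The pair that hypoxia induces in zebrafish, miR-462 and miR-731, had negative log2 differences in all 5 entries, beside 199 of all 475 tested entries. The sequence of miR-462-z holds that of miR-462-x, so the 5 entries are not independent observations. miR-462-x, the most abundant of them, was read at 1650, 1581 and 1486 TPM in acute hypoxia, against 1170, 2176 and 2051 TPM in control. The acute hypoxia values lay between the lowest control library and the other control libraries, and the log2 difference was -0.14 (95% interval -0.79 to 0.51, adjusted p 0.914), and -0.43 without control library 1. miR-731-x was read at 271, 217 and 200 TPM in acute hypoxia, against 186, 353 and 338 TPM in control, with overlap (-0.31, 95% interval -0.98 to 0.37; -0.60 without control library 1). The rare miR-462-y and miR-462-z, with 46 and 50 reads in acute hypoxia against 58 and 55 in control, had log2 differences of -0.24 and -0.05. Leaving out a single library could turn the sign of miR-462-x (up to 0.020) and of miR-462-z (up to 0.098).

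The opposite strand, miR-731-y, was read at 89.0, 55.0 and 50.6 TPM in acute hypoxia, against 184, 89.6 and 90.6 TPM in control. Each acute hypoxia library lay below each control library, though acute hypoxia library 1 only just did, and the log2 difference was -0.85 (95% interval -1.60 to -0.10, adjusted p 0.406), and -0.51 without control library 1 (adjusted p 0.624). The predicted 23 nt entry with 1 more base was read at 11.7, 6.63 and 7.40 TPM in acute hypoxia, against 28.5, 12.6 and 15.5 TPM in control (-1.01, adjusted p 0.319). As near copies of one sequence, these are not independent observations.

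**Figure D2:**
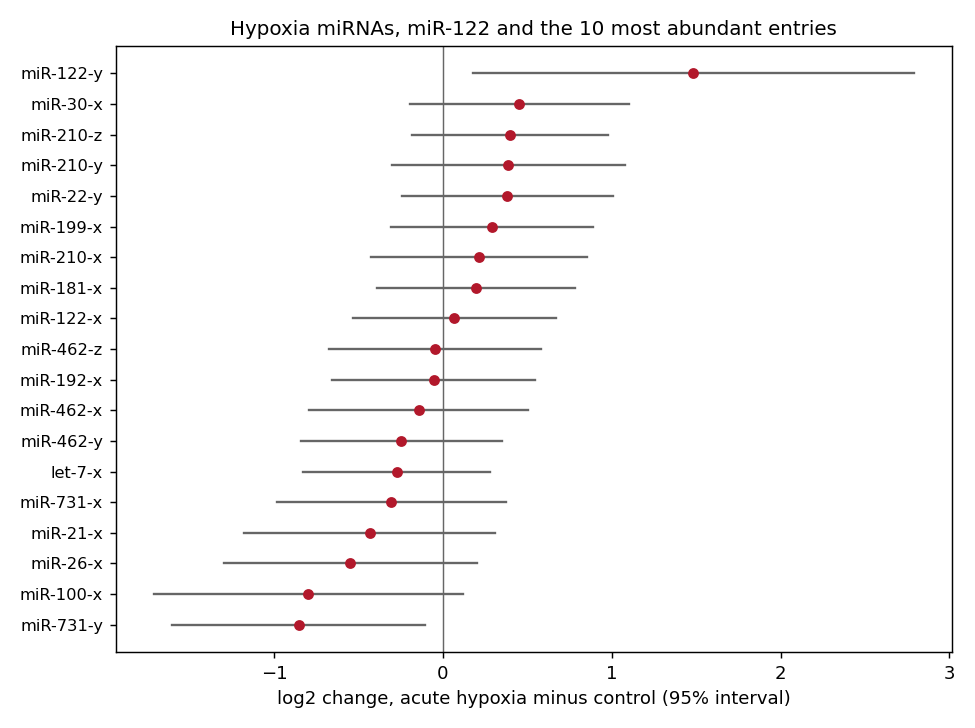
Log2 difference (acute hypoxia minus control) with its 95% interval from limma for the entries of miR-122, miR-210, miR-462 and miR-731 and the 10 most abundant entries. The intervals of miR-122-y (0.18 to 2.79) and miR-731-y (-1.60 to -0.10) leave out zero before adjustment over all entries.

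The predicted miRNA named in the title of the series, which the study links to a long noncoding RNA and the glucose transporter gene glut1a, was rare and variable. It was read at 9.54, 5.21 and 5.58 TPM in acute hypoxia, against 38.9, 5.65 and 9.48 TPM in control, from 206 and 546 reads in all. One library, control 1, held the high value, and the other control libraries lay within the range of acute hypoxia. The log2 difference was -0.90 (SE 0.513, adjusted p 0.653), and it was -0.14 without control library 1. Among the other predicted entries the most abundant one of 22 nt was read at 302, 206 and 272 TPM in acute hypoxia, against 544, 371 and 338 TPM in control, with no overlap (-0.67, adjusted p 0.496). Predicted entries together held 0.170% ± 0.0034 of the TPM in acute hypoxia and 0.176% ± 0.0243 in control (SD, n = 3 each; exact permutation test, p = 0.8).

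The 10 entries of at least 10 TPM with the smallest unadjusted p were 8 higher in acute hypoxia and 2 lower, with no overlap in any of them. Picking by small p favours groups without overlap, which were found in 53 of all 475 tested entries (11.2%). The adjusted p of the 10 in limma ran from 0.28 to 0.406. The 2 lower ones were miR-731-y and its longer form. The higher ones were 5 of the 18 nt RNAs, miR-216-x, miR-8159-x and miR-199-z.

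miR-1260-z had the smallest p of them. It was read at 86.1, 123 and 159 TPM in acute hypoxia, against 39.4, 55.2 and 52.6 TPM in control, a log2 difference of 1.28 (SE 0.311, unadjusted p 0.00106, adjusted p 0.28). miR-7977-z was read at 140, 252 and 279 TPM in acute hypoxia, against 94.0, 121 and 94.8 TPM in control (1.06, adjusted p 0.28). In both, acute hypoxia library 1 lay closest to control and library 3 farthest from it. miR-2478-z, the most abundant, was read at 451, 521 and 787 TPM in acute hypoxia, against 287, 342 and 347 TPM in control (0.81, adjusted p 0.323). The predicted 18 nt entry was read at 57.9, 96.5 and 130 TPM in acute hypoxia, against 48.4, 47.8 and 38.5 TPM in control (0.99, adjusted p 0.285). miR-1386-z was read at 16.6, 18.006 and 23.9 TPM in acute hypoxia, against 12.6, 10.3 and 8.60 TPM in control (0.83, adjusted p 0.323). The order of the acute hypoxia libraries, 1 then 2 then 3, was the same in each of these 5.

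The short length and the CCA end went together in the whole table. Of the 39 entries of 18 nt, 16 (41.0%) ended in CCA, against 9 of the 1100 entries of other lengths (0.818%). Of these 16, 12 were tested, with 11 distinct sequences, since miR-7550-z and miR-2779-z have the same one under separate values. Positive log2 differences were found in 10 of the 12, beside 266 of the other 463 tested entries, and 6 of the 12 were among the unadjusted 42 (8.84% of all tested entries). The median of the 12 was 0.71, against 0.097 over all tested entries. The set was formed after the values had been seen, because of entries among these 6. The counts and the median of the 12 are therefore no independent support. Acute hypoxia library 3 was the highest of the 6 libraries in 10 of the 12. The exceptions in direction were miR-4454-z, read at 60.5, 68.1 and 93.4 TPM in acute hypoxia against 81.4, 68.7 and 135 TPM in control (-0.32), and the rare miR-4286-z.

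Summed over all 16 such entries, the 12 tested ones and those with a mean below 1 TPM, the level was 933, 1238 and 1713 TPM in acute hypoxia, against 697, 735 and 779 TPM in control. With each sequence counted once, it was 897.5, 1193 and 1646 TPM in acute hypoxia, against 663.9, 709.7 and 749.8 TPM in control. All entries of 18 to 19 nt, 68 in number and with these 12 among them, held 0.161%, 0.166% and 0.249% of the TPM in acute hypoxia, against 0.128%, 0.124% and 0.149% in control (two-sided exact permutation test, p = 0.1, the smallest this design allows). The 56 of them outside the 12 held 0.0682%, 0.0430% and 0.0782% in acute hypoxia, against 0.0588%, 0.0506% and 0.0717% in control, with overlap. Since the class holds the 12 entries grouped after their values had been seen, its p is no independent support either. The sources used here give neither RNA integrity nor the length range taken in library preparation, and the part of the short reads as a whole in the values of the 12 entries was not tested.

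**Figure D3:**
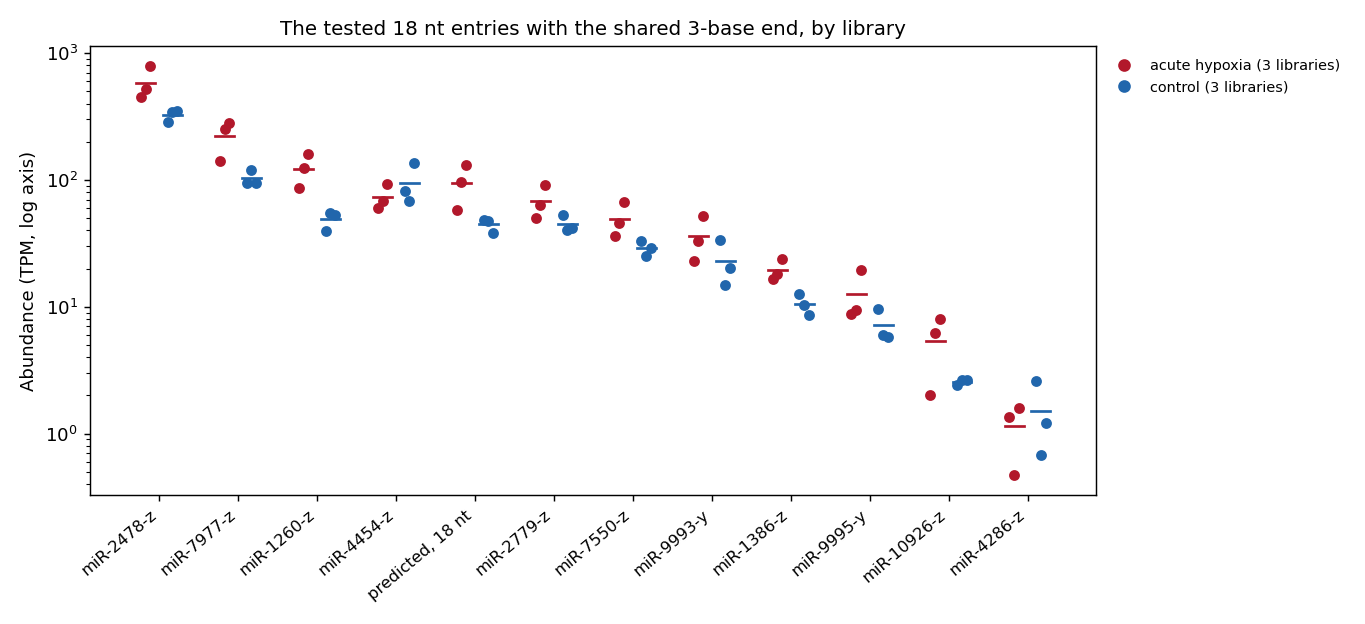
Abundance in TPM on a log axis of the 12 tested 18 nt entries that end in CCA, in the 3 acute hypoxia (left of each pair) and 3 control libraries, with bars at the means. In 6 of the 12 every acute hypoxia library lies above every control library, as in 41 of all 475 tested entries (8.63%); miR-4454-z and miR-4286-z have the higher mean in control.

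miR-216-x and miR-217-x, whose best known place is the acinar cell of the pancreas, were both higher in acute hypoxia without overlap. So were 41 of all 475 tested entries (8.63%), and miR-216-x was among those picked above by small p. miR-216-x was read at 43.9, 67.2 and 41.0 TPM in acute hypoxia, against 27.7, 10.9 and 20.5 TPM in control (1.38, adjusted p 0.28). miR-217-x was read at 3.72, 9.003 and 6.83 TPM in acute hypoxia, against 3.09, 1.17 and 3.42 TPM in control (1.08, adjusted p 0.29). The third tested pancreas marker, miR-375-y, which marks islets, was read at 121, 93.1 and 86.2 TPM in acute hypoxia, against 109, 96.4 and 118 TPM in control (-0.11). The summed level of all 4 pancreas entries overlapped, at 134 to 169 TPM in acute hypoxia and 108 to 142 TPM in control. Trout pancreas lies scattered in fat around the gut near the liver, and the part of such tissue in these values was not tested. In bulk tissue, fewer cells of a type and less RNA per cell cannot be told apart.

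miR-8159-x was read at 36.6, 50.1 and 32.7 TPM in acute hypoxia, against 23.3, 7.41 and 21.9 TPM in control (1.26, adjusted p 0.28). Its 6 libraries stood in the same order as those of miR-216-x. The teleost miRNA miR-459-x, which has the same seed, was read at 480, 749 and 657 TPM in acute hypoxia, against 443, 546 and 357 TPM in control, with overlap (0.48, adjusted p 0.689). miR-199-z, which shares its seed and first 17 bases with the abundant miR-199-x, was read at 18.8, 33.6 and 24.3 TPM in acute hypoxia, against 12.2, 18.6 and 11.4 TPM in control (0.81, adjusted p 0.357).

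**Figure D4:**
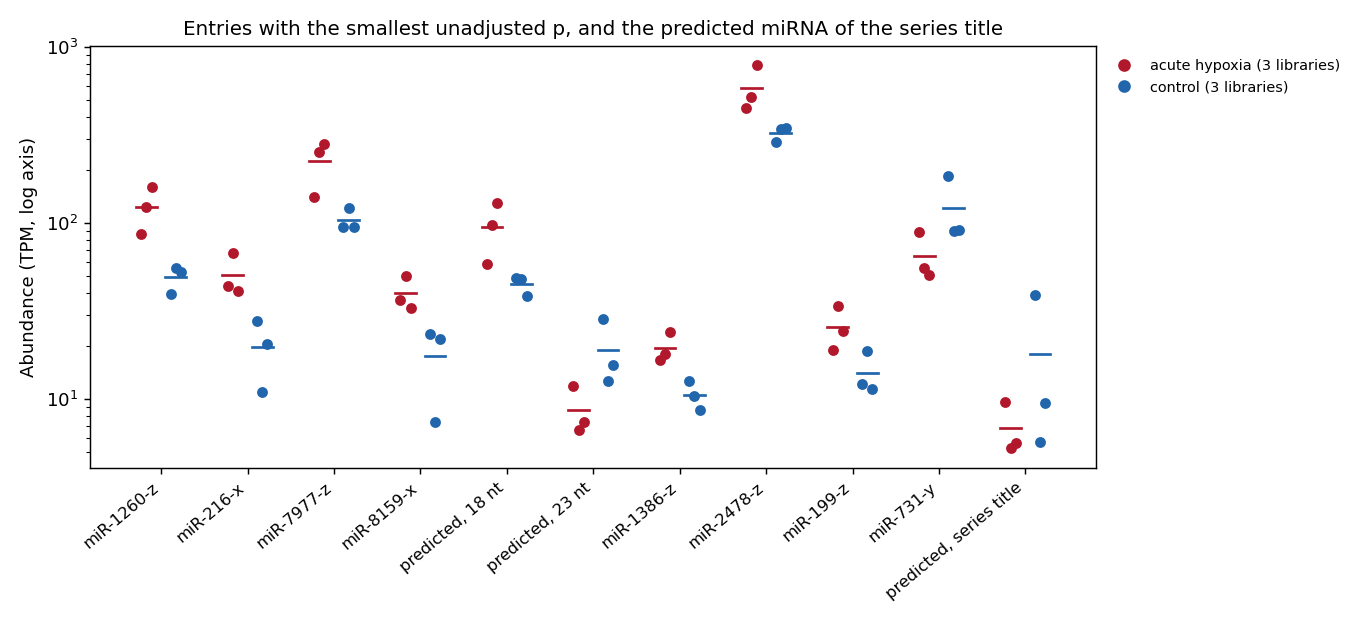
Abundance in TPM on a log axis of the 10 entries of at least 10 TPM with the smallest unadjusted p and of the predicted miRNA named by the series, in 3 acute hypoxia (left of each pair) and 3 control libraries, with bars at the means. The groups do not overlap in the first 10, which were picked by small p, against 53 of all 475 tested entries (11.2%). Control library 1, at 38.9 TPM, stands alone in the last entry.

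None of the 28 miRNA lists, drawn by family, function and cell type, held an entry called after adjustment. Of 40 tested entries known to respond to hypoxia in mammals, 25 had positive and 15 negative log2 differences, with a median of 0.07 against 0.097 over all tested entries; under the trimmed mean of M values the split was 17 and 23, under the median of ratios 16 and 24, and under quantile normalization 20 and 20. Without control library 1 it was 31 and 9, with a median of 0.16. The direction in which each responds in mammals was not used, so the split does not measure agreement with mammals. Of 21 liver-enriched entries, 16 were positive, beside 276 of all 475 tested entries, and their median was 0.29. Under each of these 3 scalings 14 of the 21 were positive, and without control library 1 it was 19. Several of the 21 are strands or near copies of the same miRNAs, so they are not independent observations. Besides miR-122-y, the other liver-enriched entry with an unadjusted p under 0.05 in limma was miR-30-z, beside 42 of all 475 tested entries (8.84%). It was read at 51.3, 72.3 and 62.9 TPM in acute hypoxia, against 31.9, 47.5 and 38.5 TPM in control (0.65). miR-194-x, made together with miR-192 or miR-215 in vertebrates, was read at 2883, 4069 and 3251 TPM in acute hypoxia, against 2881, 2802 and 2261 TPM in control (0.35), where the lowest acute hypoxia library only just passed the highest control library. miR-215-x had a log2 difference of 0.28 with overlapping groups.

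Of the glucose and lipid list, close to the theme of the study, 22 entries were tested, with 12 positive and 10 negative differences and a median of 0.01, which turned to 7 and 15 under the trimmed mean of M values and under the median of ratios and to 8 and 14 under quantile normalization. Its member miR-143-x, which also marks smooth muscle, was read at 304, 414 and 325 TPM in acute hypoxia, against 173, 315 and 165 TPM in control (0.73, adjusted p 0.478). On the stroma and smooth muscle list miR-145-x and miR-145-y had negative differences and miR-143-y a positive one, all with overlap. miR-222-y, of a pair that curbs cell cycle inhibitors in mammals, was read at 2649, 1211 and 1704 TPM in acute hypoxia, against 1522, 2616 and 3641 TPM in control (-0.47; -0.81 without control library 1). All 4 tested entries of miR-221 and miR-222 had negative differences, with a median of -0.58, which was -0.23 without control library 1. The strands of miR-33, which lies inside the sterol regulator gene srebf2 in vertebrates, went apart: miR-33-x was read at 13.8, 23.9 and 16.4 TPM in acute hypoxia against 15.9, 12.8 and 4.63 TPM in control, and miR-33-y at 30.4, 7.58 and 13.4 TPM in acute hypoxia against 87.0, 12.1 and 17.3 TPM in control. In both strands the groups overlapped. The 87.0 TPM of miR-33-y came from control library 1, and the other control libraries lay within its acute hypoxia range. The opposite direction of miR-33-y thus rested on that library.

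Among families, 10 of the 11 tested entries of the list that joins miR-10 and miR-125 with miR-99 and miR-100 had negative differences, with a median of -0.21; without control library 1, 8 of the 11 were negative and the median was -0.06. miR-100-z, the longer form of miR-100-x, was read at 16911, 5866 and 8212 TPM in acute hypoxia, against 40461, 9320 and 16321 TPM in control (-0.97, adjusted p 0.616; -0.40 without control library 1). The 17 tested entries of the growth-promoting miR-17-92 clusters had a median of 0.01, which was -0.08 to -0.11 under the 3 other scalings and 0.16 without control library 1. Within them miR-92-y had a log2 difference of -0.21 and miR-19-y one of 0.49, with overlap in both.

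The summed levels of the markers of each other cell type overlapped between the groups. The 7 red blood cell entries had a median of 0.01, which was -0.10 to -0.12 under the 3 other scalings, and their sums lay at 6059 to 7404 TPM in acute hypoxia and 6404 to 6932 TPM in control. The list takes in miR-16 beside miR-144 and miR-451, though miR-16 was not among the markers set for red blood cells in the design. In every library miR-16-x was the largest part of the sum, at 4463, 3528 and 3773 TPM in acute hypoxia against 2786, 4050 and 4728 TPM in control. The tested miR-16 and miR-144 entries had positive differences, and those of miR-451 negative ones. miR-451-x, made in red blood cells without Dicer, had a log2 difference of -0.19. The 8 leukocyte entries had a median of -0.04, with sums of 13290 to 18440 TPM in acute hypoxia and 14980 to 21400 TPM in control. miR-126-x and miR-126-y of endothelium had log2 differences of 0.53 and 0.24, both with overlap. Of 10 stroma entries 7 were positive, with a median of 0.16, and 5 were positive under the trimmed mean of M values. The 5 striated muscle entries were all negative, and 4 were without control library 1, with sums of 39.5 to 74.5 TPM in acute hypoxia and 51.7 to 78.1 TPM in control. Among them miR-206-y, of skeletal muscle, had 0, 0.948 and 1.02 TPM in acute hypoxia, against 4.54, 0.974 and 1.87 TPM in control (-0.998, unadjusted p 0.0195; -0.59 without control library 1).

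**Figure D5:**
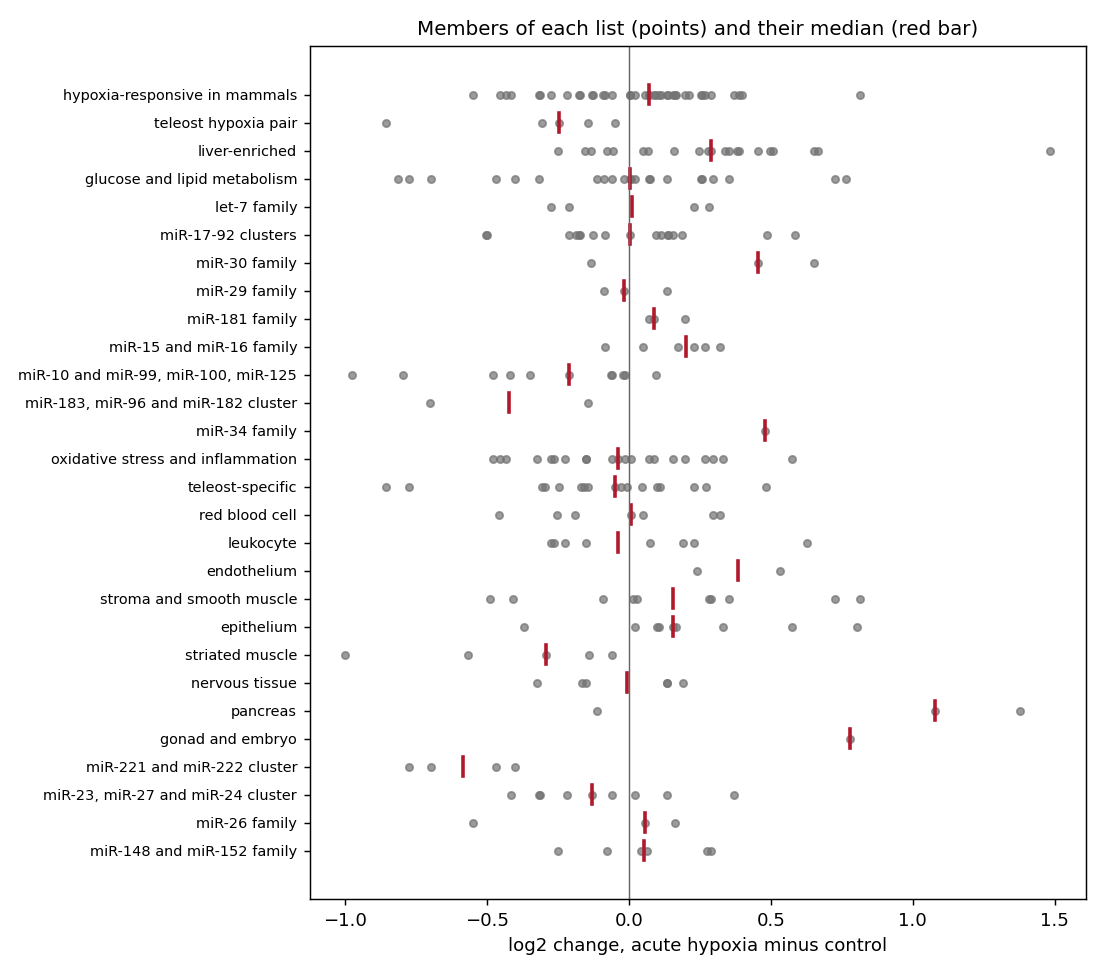
Log2 difference (acute hypoxia minus control) of each tested member of the 28 lists, 1 point per entry, with a red bar at the median of the list. The hypoxia-responsive list is centred at 0.07, the liver-enriched list at 0.29 and the miR-221 and miR-222 list at -0.58.

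The moderate hypoxia libraries were named and scaled in a separate table, so their levels are set beside the values above without a test, and both hypoxia groups share the control libraries. Of the 12 short RNAs above, 10 were matched by name in that table, and 9 of them lay below every acute hypoxia library in each moderate hypoxia library, the exception being miR-4286-z. Among them miR-1260-z was read at 54.1, 18.8 and 38.0 TPM, miR-7977-z at 50.5, 19.3 and 34.5 TPM, and miR-2478-z at 348, 182 and 280 TPM. In 7 of the 10 the moderate hypoxia values lay below every control library, while those of miR-1260-z, miR-2478-z and miR-9993-y overlapped control. Neither count is independent support, because the set was formed after its acute hypoxia and control values had been seen. The same counts over all matched entries were not made, so it is not known whether these 10 differ from other entries in this respect. miR-216-x, at 22.2, 58.8 and 37.4 TPM, and miR-8159-x, at 25.7, 81.6 and 48.7 TPM, overlapped the acute hypoxia values. miR-731-y, at 33.2, 36.1 and 36.8 TPM, lay below every acute hypoxia and every control library. miR-210-z, at 49.5, 32.9 and 38.0 TPM, and miR-459-x, at 94.7, 99.4 and 96.1 TPM, did so too, while miR-210-x, at 140, 134 and 135 TPM, lay within the range of acute hypoxia and of control. No moderate hypoxia value is given here for miR-210-y, the longer form of miR-210-z. The level of that strand as a whole was therefore not compared. The control values of the entries given here with values differed by at most 1.04% between the tables.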

How the data were processed

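The deposited file holds 3 stacked tables of miRNA entries with sequence, length and values named TPM per the file headers; these are a scaled signal, and the authors wrote 0.01 where no read was found, which was set to 0. The sources used here name no aligner, genome build or miRNA predictor. Low values were whole multiples of 1 step per library (tolerance 0.1 of a read), which gave the depths. The table of acute hypoxia and control was used. Values were put on the scale log2(TPM + 1), which understates differences of rare entries, and fitted with the trend method of limma 3.58.1 in R 4.3.3 on 2 group means, two-sided, with Benjamini-Hochberg adjustment over 475 entries and a threshold of 0.05. Class shares were compared by exact permutation over libraries with scipy 1.17.1. The fit was tested on simulated data. Libraries of a group differed beyond sampling noise in every pair. A quasi-likelihood count test planned as an alternative was not run; limma's voom on the reads recovered from the steps was run in its place.

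Named entries were the 10 of at least 10 TPM with the smallest unadjusted p, the title miRNA, all miR-122, miR-210, miR-462 and miR-731 entries, the 10 most abundant, and up to 3 per list by mean; further entries were named after their values were seen. The comparison and the 28 lists were chosen with earlier results of these data known. Alternatives were other pseudocounts, filters, scalings, a replicate block, voom and leaving out each library.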

Additional observations from a re-analysis of the deposited data

How the results depend on the processing

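At an adjusted p under 0.05 limma called 0 entries in 16 of the 17 alternatives and 3 without control library 1, so that over the left-out libraries the count ran from 0 to 3. At an unadjusted p under 0.05 it was 82 of 1139 entries with no filter and 15 of 192 at a mean of at least 10 TPM, where the number tested changed, and 28 to 65 over the left-out libraries. With the replicate block, for libraries of the same number, no entry was called; 34 were higher and 21 lower at an unadjusted p under 0.05, and the smallest adjusted p was 0.0649. Deviations of same-numbered libraries correlated at 0.0317, 0.252 and 0.0445, and not every library correlated best with its own number, so the numbers were not taken to pair the libraries. The voom fit on recovered reads, chosen after the data were seen, gave 33 higher and 8 lower and no call. The planned quasi-likelihood count test was not run, and the voom fit took its place.

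Of the 48 entries given with a log2 difference, 44 kept their sign in every alternative they could be fitted in. Without each library in turn, miR-462-x ran from -0.43 to 0.020, miR-462-z from -0.25 to 0.10, miR-192-x from -0.19 to 0.11 and miR-122-x from -0.14 to 0.21. miR-122-x was also -0.042 under the trimmed mean of M values and -0.056 under the median of ratios, with other entries shifted likewise. miR-216-x (1.02 to 1.66) and miR-8159-x (0.77 to 1.53) were called without control library 1 alone. The difference in share ran from -4.49 to 5.18 percentage points for miR-122, from -0.0066 to 0.0176 for known and from -0.0176 to 0.0066 for predicted entries. The cause of these changes was not tested. With 3 libraries a group, log2 differences smaller than about 0.643 lay within the usual 95% interval, and entries near 1 TPM rested on few reads.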

Other observations

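Several entries that belong to no comparison above were read in a single library. miR-506-y, miR-508-y, miR-509-x, miR-509-y and miR-514-y, which in mammals form a testis-enriched cluster on the X chromosome, had 14, 9, 8, 14 and 64 reads in acute hypoxia library 1 and no read in the 5 other libraries. miR-202-z, known from gonads, had 7 reads in acute hypoxia library 2 and none elsewhere. No other entry with at least 5 reads was read in 1 library only. In all, 12 entries were read only in acute hypoxia libraries and 5 only in control libraries, and 3 of those 5 were read in every control library, with at most 8 reads.

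Grouped by shared seed, the miR-99 and miR-100 entries (seed ACCCGTA) all had negative log2 differences, with a median of -0.61 over 4 entries between -0.97 and -0.35, and -0.19 without control library 1. With miR-100-z the longer form of miR-100-x, these are not independent observations. Other seed groups also had a single sign, such as ACGGTAT (-0.69 to -0.11) and AGCTGCC (0.05 to 0.43), while others, such as GAGGTAG (-0.27 to 0.23), had both. The miR-221 and miR-222 entries with seed GCTACAT had a median of -0.70 over 3 entries, and -0.23 without control library 1. The 4 entries with seed AGCAGCA, of miR-15, miR-16 and miR-457, lay between 0.05 and 0.27, and 1 of them was negative under the trimmed mean of M values, under the median of ratios and without control library 1. A 19 nt entry, miR-10014-x, begins with the first 17 bases of miR-122-x; it was read at 562, 324 and 502 TPM in acute hypoxia, against 494, 363 and 599 TPM in control.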
